A study of Mus musculus with 18 samples.

Results

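Fcer2a, Cr2 and Icosl are 3 of the 35275 genes in the expression table of splenic mouse B cells stimulated with the cytokine BAFF. They encode surface proteins of B cells and were taken by name, with earlier results of these data known. Fcer2a encodes CD23, the low-affinity receptor for IgE. Cr2 encodes the complement receptors CD21 and CD35, which the mouse makes from a single gene by splicing. Icosl encodes ICOSL, the ligand of the T cell costimulator ICOS.

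BAFF is a survival cytokine of mature B cells and binds the receptors BR3, TACI and BCMA. Through BR3 it stabilises the kinase NIK, which leads to processing of the NF-kB subunit precursor p100 (noncanonical signalling), and mice without BAFF or BR3 lack most mature B cells. CD23 and CD21 appear on the surface as transitional B cells mature, CD23 marks follicular B cells, and marginal zone B cells carry high CD21 and little CD23. CD21 is part of the B cell coreceptor and binds complement fragments on antigen. ICOSL on B cells engages follicular helper T cells, and both CD23 and ICOSL can be cut from the surface by the protease ADAM10.

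Pan B cells from the spleens of C57BL/6 mice were held for 1 h with 1000 ng/ml of control antibody (Ab) or of mBaffR-mFc (BRFc), a fusion protein that by the study's design text blocks the BR3-binding site on BAFF. For the next 4 h they received 100 ng/ml of BAFF 3mer, the same dose of BAFF 60mer, or no BAFF. The 3mer is the basic unit of the soluble cytokine and the 60mer is a cage of such units. This gave the 6 groups Ab, Ab_3mer, Ab_60mer, BRFc, BRFc_3mer and BRFc_60mer, with 3 libraries each, numbered here in the order of deposition. The groups share strain, tissue, cell type and incubation times, and no group lacks a pretreatment. The labels do not say whether the 3 libraries of a group came from separate mice or cultures, so p-values measure the spread between these libraries, which may be technical. The comparisons ask what each form of BAFF does to the 3 transcripts and whether the response differs when the BR3-binding site is blocked.

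Values are FPKM, that is, fragments scaled by gene length in kilobases and by the library total in M (mega). The recovered totals had a median of 18.4 M and spanned 12.2 to 25.4 M fragments. All 3 genes passed the filter of a mean of 1 FPKM, with 11646 genes tested. The levels of 8 B cell markers, among them Ms4a1, Cd79a, Cd79b and Pax5, summed to 5763 to 6482 FPKM in every library. Markers of other blood cells were present at lower levels. The 8 monocyte and macrophage markers summed to 143 to 170 FPKM, mostly Lyz2 (mean 110), the 6 NK cell markers to 89.3 to 112, mostly Gzma (52.3), and the 8 T cell markers to 42.8 to 54.4, mostly Lck (44.8), with Cd3e at 0.507. Since these are bulk libraries, fewer cells of a type and less RNA per cell cannot be told apart. The connective tissue genes Bgn, Dcn, Sparc, Col3a1, Col1a1 and Col1a2, 6 in all, summed to 8.14 to 12.9 FPKM in 8 libraries, namely all 6 with 60mer and libraries 1 and 2 of Ab_3mer. In the other 10 libraries the same sum was 0 to 0.131 FPKM. This split runs nearly along the 60mer treatment, and the values with it as a term in the fit are given for Fcer2a and Cr2 and, as a range, for each gene list.

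The promoters of the 3 genes are shown because BAFF acts through NF-kB and because a gene-level FPKM value sums over the start sites of a gene. Fcer2a (ENSMUSG00000005540) lies on the minus strand at chr8:3681737-3694175, Cr2 (ENSMUSG00000026616) on the minus strand at chr1:195136811-195176716 and Icosl (ENSMUSG00000000732) on the plus strand at chr10:78069302-78083913, in GRCm38 coordinates of the GENCODE annotation. RefSeq lists 3 start sites for Fcer2a and 1 each for Cr2 and Icosl (GRCm38.p6). Each window runs 5′ to 3′ on the strand of the gene, from 250 bases before to 50 bases after the start. Capitals mark matches on either strand to GGGNNNNNCC, a frame of NF-kB sites, or to TTCNNNNGAA, the spacing of STAT6 sites.
Fcer2a, upstream start: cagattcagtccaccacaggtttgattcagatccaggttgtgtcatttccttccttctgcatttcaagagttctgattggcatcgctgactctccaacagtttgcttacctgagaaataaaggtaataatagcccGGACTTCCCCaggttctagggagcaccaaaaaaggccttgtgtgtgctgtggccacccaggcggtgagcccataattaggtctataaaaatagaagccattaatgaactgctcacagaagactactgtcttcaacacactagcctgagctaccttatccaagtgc
Fcer2a, second start: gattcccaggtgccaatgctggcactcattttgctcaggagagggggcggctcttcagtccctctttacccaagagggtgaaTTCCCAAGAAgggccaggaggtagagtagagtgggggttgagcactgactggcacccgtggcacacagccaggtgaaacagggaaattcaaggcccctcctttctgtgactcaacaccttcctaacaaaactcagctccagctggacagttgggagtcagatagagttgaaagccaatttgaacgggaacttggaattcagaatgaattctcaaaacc
Cr2: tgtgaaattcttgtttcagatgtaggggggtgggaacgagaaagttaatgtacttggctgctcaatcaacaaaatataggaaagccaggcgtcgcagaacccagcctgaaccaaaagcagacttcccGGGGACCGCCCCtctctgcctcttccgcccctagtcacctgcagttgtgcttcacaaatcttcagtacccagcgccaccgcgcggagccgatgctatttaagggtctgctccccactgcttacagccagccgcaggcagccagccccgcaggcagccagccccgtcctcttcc
Icosl: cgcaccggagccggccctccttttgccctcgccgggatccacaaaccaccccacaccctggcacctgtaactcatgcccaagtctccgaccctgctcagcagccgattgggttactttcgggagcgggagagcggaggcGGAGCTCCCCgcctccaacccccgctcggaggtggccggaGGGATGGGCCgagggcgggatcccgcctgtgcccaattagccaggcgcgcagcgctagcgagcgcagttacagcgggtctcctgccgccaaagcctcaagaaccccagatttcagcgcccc
The windows lie at chr8:3694125-3694424, chr8:3690812-3691111, chr1:195176670-195176969 and chr10:78069118-78069417.

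The upstream Fcer2a window held 1 match to the NF-kB frame, from 115 to 106 bases before the start. The second Fcer2a window held none and had 1 match to the STAT6 spacing, from 168 to 159 bases before the start. The first 6 bases of that match also match TGGGAA, the core of RBPJ sites, on the other strand, and a second RBPJ core lay from 248 to 243 bases before the start. The window of the third Fcer2a start, whose sequence is not shown, held 1 RBPJ core, from 205 to 200 bases before it, and neither of the other motifs. In the Cr2 window 3 overlapping matches to the NF-kB frame formed the capital run from 123 to 112 bases before the start, and TGGGAA occurred once. The Icosl window held 2 matches to the NF-kB frame, and neither of the other motifs. Of 32817 promoters of the same length, 50.8% held the NF-kB frame, 6.94% the STAT6 spacing and 25.6% the RBPJ core. A match describes letters and not a bound site, and no binding data were analysed here.

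Fcer2a and Cr2 were higher with BAFF 60mer than in any other library, after either pretreatment, and Icosl was not. Fcer2a ranged from 209.6 to 241.8 FPKM in the 6 libraries with 60mer (median 227.8) and from 161.7 to 178.5 in the other 12 (median 168.7). Cr2 ranged from 35.4 to 41.0 FPKM with 60mer (median 37.0) and from 29.3 to 33.8 in the other 12 (median 31.7). Of the tested genes, 1.86% had all 6 libraries with 60mer above the other 12. Icosl ranged from 50.4 to 54.3 FPKM with 60mer (median 51.4) and from 45.7 to 63.1 in the other 12 (median 50.7), so that its 60mer libraries lay inside the range of the rest. The moderated F test of limma over the 6 groups gave an adjusted p of 1.03e-06 for Fcer2a, 0.00047 for Cr2 and 0.920 for Icosl, and 8.93% of tested genes passed it.

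**Figure D1:**
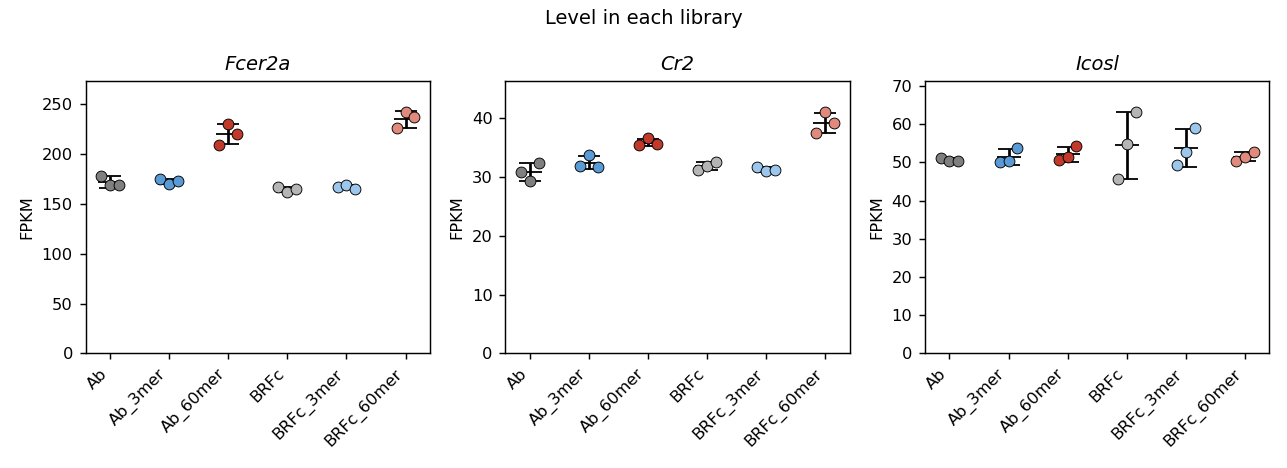
FPKM of Fcer2a, Cr2 and Icosl in each of the 18 libraries by group; points are libraries, and bars are the mean and SD of 3. The 60mer groups stand above the rest for Fcer2a (209.6 to 241.8 FPKM) and Cr2 (35.4 to 41.0 FPKM), and the BRFc libraries of Icosl spread from 45.7 to 63.1 FPKM.

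The genes differed in abundance. By mean FPKM over 18 libraries, a level per length, Fcer2a was the 473rd of the 11646 tested genes at 188.5, Icosl the 2476th at 52.3 and Cr2 the 3830th at 33.6. A library held 7915 to 15731 fragments of Fcer2a, 3505 to 6802 of Cr2 and 2857 to 7403 of Icosl, as recovered from FPKM and gene length. Counting error at the smallest number was 1.12%, 1.69% and 1.87%, below the differences called here.

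Fcer2a did not differ detectably between no BAFF and 3mer, and rose with 60mer. After control antibody, Fcer2a stood at 178.5, 168.5 and 168.9 FPKM without BAFF (mean 171.9 ± 5.64, SD, n = 3). With 3mer the libraries gave 175.0, 169.8 and 172.8 FPKM (172.6 ± 2.58). With 60mer they gave 209.6, 229.9 and 220.1 FPKM (219.8 ± 10.2). The 3mer libraries lay within the range of those without BAFF, while each 60mer library was above all of the others. Such a separation upward from no BAFF was seen in 13.5% of genes, and from 3mer in 11.8%. The rise with 60mer against no BAFF was 0.35 ± 0.040 on the log2(FPKM + 1) scale (SE, adjusted p = 5.26e-05, limma), or 27.9% in mean FPKM. In that comparison 5.04% of tested genes passed higher and 8.94% lower, and among those that passed higher the rise of Fcer2a was the 185th in size. Against 3mer, the rise with 60mer was 0.35 ± 0.040 (adjusted p = 8.61e-05), where 4.81% of genes passed.

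After mBaffR-mFc, Fcer2a again rose with 60mer and not detectably with 3mer. Without BAFF the libraries gave 166.6, 161.7 and 165.1 FPKM of Fcer2a (164.5 ± 2.53). With 3mer they gave 167.0, 169.3 and 164.7 FPKM (167.0 ± 2.26). With 60mer they gave 225.7, 241.8 and 237.2 FPKM (234.9 ± 8.33). The 60mer libraries lay above the other 6, as 7.13% of genes did against no BAFF and 10.1% against 3mer, and the 3mer libraries overlapped those without BAFF. The rise with 60mer against no BAFF was 0.51 ± 0.040 on the log2 scale (adjusted p = 1.92e-06, limma), or 42.8% in mean FPKM, the third smallest p of all tested genes. Here 4.83% of genes passed, 1.46% higher and 3.37% lower. The rise against 3mer was 0.49 ± 0.040 (adjusted p = 2.80e-06), the fourth smallest p, with 5.16% of genes passing.

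The response of Fcer2a to 60mer was thus 0.16 ± 0.056 larger on the log2 scale after mBaffR-mFc than after control antibody (95% interval 0.04 to 0.28). This interaction did not pass over all genes (adjusted p = 0.891, limma; unadjusted p = 0.0121 in that fit), and 0.00859% of genes, a single gene, did. The difference drew on both ends of the response. Without BAFF, all 3 BRFc libraries lay below all 3 Ab libraries (difference -0.06 ± 0.040, adjusted p = 0.879). With 60mer, BRFc_60mer exceeded Ab_60mer by 0.10 ± 0.040 (adjusted p = 0.993), and the groups overlapped. Non-overlap in the lower direction was seen in 5.29% of genes between BRFc and Ab. With 3mer, the BRFc libraries were again all below the Ab libraries (difference -0.05 ± 0.040, adjusted p = 0.998), as in 4.61% of genes.

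Cr2 moved in the same direction as Fcer2a, with smaller steps. After control antibody, Cr2 stood at 30.8, 29.3 and 32.4 FPKM without BAFF (30.9 ± 1.56, SD, n = 3). With 3mer the libraries gave 31.9, 33.8 and 31.7 FPKM (32.4 ± 1.17). With 60mer they gave 35.4, 36.5 and 35.5 FPKM (35.8 ± 0.634). All 60mer libraries exceeded the other 6, and the 3mer libraries overlapped those without BAFF. The rise with 60mer against no BAFF was 0.21 ± 0.045 on the log2 scale (adjusted p = 0.00636, limma), or 16.1% in mean FPKM. Against 3mer the difference of 0.14 ± 0.045 did not pass (adjusted p = 0.0891), although the groups did not overlap, as in 11.8% of genes in that direction.

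After mBaffR-mFc, Cr2 stood at 31.2, 31.9 and 32.5 FPKM without BAFF (31.8 ± 0.648). With 3mer the libraries gave 31.6, 31.0 and 31.2 FPKM (31.3 ± 0.35). With 60mer they gave 37.5, 41.0 and 39.1 FPKM (39.2 ± 1.74), the highest values of Cr2 in the table. The rise with 60mer was 0.29 ± 0.045 against no BAFF (adjusted p = 0.00119, limma), or 23.1% in mean FPKM, and 0.32 ± 0.045 against 3mer (adjusted p = 0.000625).

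Every library of BRFc_60mer was above every library of Ab_60mer for Cr2, a difference of 0.13 ± 0.045 that did not pass over all genes (adjusted p = 0.850, limma). Of the tested genes, 4.10% were separated in that direction and 0.0258% passed. The interaction for 60mer against no BAFF was 0.08 ± 0.064 (adjusted p = 0.922). For 60mer against 3mer it was 0.18 ± 0.064 (95% interval 0.04 to 0.31, adjusted p = 1.00), where 0.0172% of genes passed. The corresponding value of Fcer2a was 0.14 ± 0.056 (95% interval 0.02 to 0.26, adjusted p = 1.00). For both genes, therefore, the estimated gain from 3mer to 60mer was larger after mBaffR-mFc than after control antibody, and in neither did that pass adjustment.

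**Figure D2:**
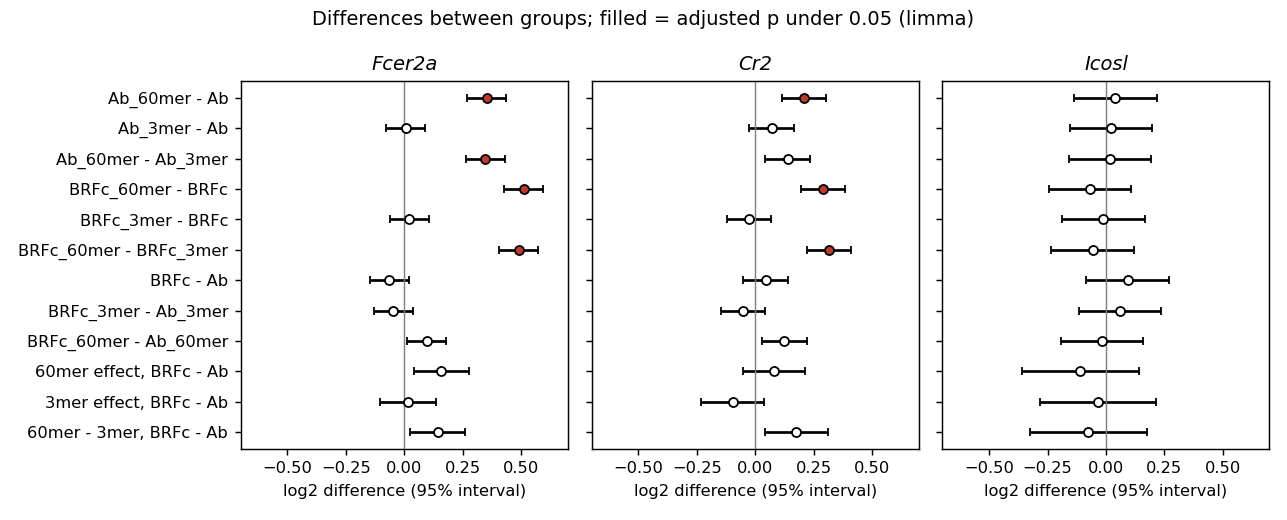
Log2 differences of Fcer2a, Cr2 and Icosl in 9 comparisons of groups and 3 interactions, with 95% intervals from limma; filled points passed at an adjusted p under 0.05. All 4 comparisons of 60mer with no BAFF or 3mer passed for Fcer2a, 3 of them for Cr2 and none for Icosl. BRFc_60mer against Ab_60mer passed for none of the genes, and no interaction passed.

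No response to BAFF 3mer was detected in any of the 3 genes. After control antibody the difference between 3mer and no BAFF was 0.01 for Fcer2a (95% interval -0.08 to 0.09), 0.07 for Cr2 (-0.02 to 0.17) and 0.02 for Icosl (-0.15 to 0.20). After mBaffR-mFc it was 0.02 for Fcer2a (95% interval -0.06 to 0.11), -0.03 for Cr2 (-0.12 to 0.07) and -0.01 for Icosl (-0.19 to 0.17). Adjusted p ran from 0.881 to 1.00 over these 6 values (limma). For Fcer2a and Cr2 the upper end lay below the estimated rise of the same gene with 60mer after the same pretreatment. For Cr2 after control antibody the intervals of 3mer and 60mer overlapped, since that of 60mer began at 0.12. There the direct difference between 60mer and 3mer did not pass (adjusted p = 0.0891, limma). In limma, 0 of the tested genes passed for 3mer after control antibody (632 at an unadjusted p under 0.05) and 0 after mBaffR-mFc (388). The voom fit on recovered fragments also passed 0 in each, with 642 and 440 at an unadjusted p under 0.05.

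For Icosl the groups overlapped throughout, and its largest spread was between libraries of a single group. Without BAFF, Icosl stood at 51.1, 50.4 and 50.4 FPKM after control antibody (50.6 ± 0.416, SD, n = 3). In BRFc the libraries gave 45.7, 54.7 and 63.1 FPKM (54.5 ± 8.72), which include both the lowest and the highest value of Icosl in the table. With 3mer, Icosl stood at 50.1, 50.3 and 53.9 FPKM in Ab_3mer (51.4 ± 2.13). In BRFc_3mer it stood at 49.3, 52.8 and 59.1 FPKM (53.7 ± 4.94).

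With 60mer, Icosl stood at 50.6, 51.4 and 54.3 FPKM in Ab_60mer (52.1 ± 1.91). In BRFc_60mer it stood at 50.4, 51.3 and 52.7 FPKM (51.5 ± 1.12). The difference of 60mer from no BAFF was 0.04 ± 0.084 after control antibody (95% interval -0.14 to 0.22, adjusted p = 0.793, limma) and -0.07 ± 0.084 after mBaffR-mFc (-0.25 to 0.11, adjusted p = 0.716). Both intervals end below the estimated rise of Fcer2a in the same comparison. After control antibody the upper end, 0.22, lies above the rise of Cr2 (0.21), so Icosl is not separated from Cr2 there. In 5 of the 6 groups library 3, the last deposited of its group, had the highest Icosl value, against 0 groups for Fcer2a and 2 for Cr2. Of all tested genes, 11.8% had library 3 highest in at least 5 groups. The labels give no meaning to that order.

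Ordered by mean level, Fcer2a ran from BRFc_60mer through Ab_60mer, Ab_3mer, Ab and BRFc_3mer to BRFc, and its only neighbours without overlap were Ab_60mer and Ab_3mer. Cr2 ran from BRFc_60mer through Ab_60mer, Ab_3mer, BRFc and BRFc_3mer to Ab, and here BRFc_60mer and Ab_60mer were separated as well. Icosl ran from BRFc through BRFc_3mer, Ab_60mer, BRFc_60mer and Ab_3mer to Ab, and all of its neighbours overlapped.

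The FPKM of Fcer2a over that of Cr2, a ratio of levels per length chosen after the values were seen, was 5.90 to 6.29 in the libraries with 60mer and 5.03 to 5.79 in the other 12. The ratio was higher in each library with 60mer than in any other. That describes 2 genes already seen to rise with 60mer, and is no test of whether they moved by the same factor. Over the 18 libraries the Pearson correlation of log2 values was 0.920 between Fcer2a and Cr2, -0.12 between Fcer2a and Icosl and -0.04 between Cr2 and Icosl. These correlations are descriptions over libraries that share their groups.

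Among the 12 libraries without 60mer, already seen to lie below those with 60mer for Fcer2a and Cr2, 2 shared the connective tissue transcripts. Their values are a description and no further test. Ab_3mer libraries 1 and 2, with a connective tissue sum of 10.01 and 12.91 FPKM, had 175.0 and 169.8 FPKM of Fcer2a. Ab_3mer library 3, with a sum of 0.0756 FPKM, had 172.8. The Ab_60mer libraries, with sums of 8.14 to 10.6 FPKM, had 209.6 to 229.9. For Cr2 the first 2 Ab_3mer libraries had 31.9 and 33.8 FPKM and library 3 had 31.7, against 35.4 to 36.5 in Ab_60mer.

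With a term for whether a library carried these transcripts, chosen after seeing the data, the rise of Fcer2a with 60mer against no BAFF was 0.36 ± 0.075 after control antibody (adjusted p = 0.081, limma) and 0.51 ± 0.075 after mBaffR-mFc (adjusted p = 0.0092). The rise of Cr2 was 0.16 ± 0.083 (adjusted p = 0.621) and 0.24 ± 0.083 (adjusted p = 0.655), and against 3mer after mBaffR-mFc it was 0.27 ± 0.083 (adjusted p = 0.422). In that fit only Ab_3mer held libraries of both kinds, so the term rests on that group, and no call of Cr2 was kept. Without the term the SE was 0.040 for Fcer2a and 0.045 for Cr2. The Fcer2a call after control antibody was lost with a difference no smaller than the 0.35 without the term. The Cr2 differences were smaller with the term. Without it they were 0.21 and 0.29 against no BAFF, and 0.32 against 3mer after mBaffR-mFc.

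**Figure D3:**
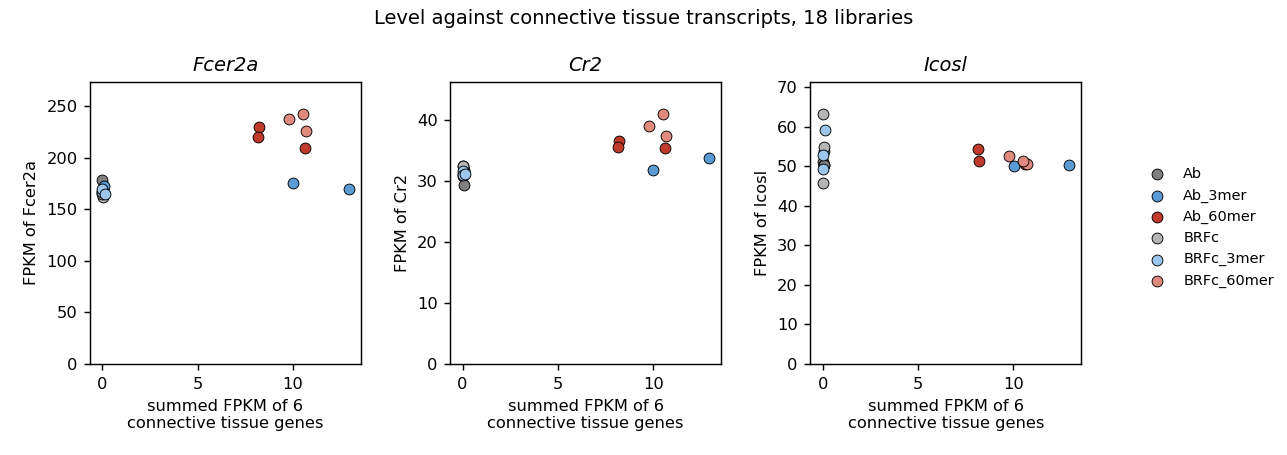
FPKM of Fcer2a, Cr2 and Icosl against the summed FPKM of 6 connective tissue genes in each of 18 libraries, coloured by group. The Ab_3mer libraries at sums of 10.01 and 12.91 FPKM lie with the libraries without 60mer for Fcer2a, at 175.0 and 169.8 FPKM.

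Other cell types that carry CD21 and CD23 were looked for by their markers. Follicular dendritic cells are the main non-lymphoid carriers of CD21 in the spleen. The 9 markers of follicular dendritic and stromal cells summed to 5.59 to 8.82 FPKM, with 2 of them, Mfge8 and Clu, above the filter at means of 4.07 and 2.96 FPKM. Cxcl13, the chemokine that defines these cells, averaged 0.118 FPKM and Cr2 was 33.6. Neither Mfge8 nor Clu passed in any 60mer comparison. The 6 dendritic cell markers summed to 17.9 to 22.6 FPKM with 60mer and 12.8 to 15.5 in the other libraries. Of the 3 tested members, Flt3 and Itgax did not share that rise against no BAFF. The difference of Flt3 was -0.06 after each pretreatment. That of Itgax was -0.20 after control antibody and -0.10 after mBaffR-mFc. Only Zbtb46 of that list passed, with a difference of 0.62 between Ab_60mer and Ab and 0.67 between BRFc_60mer and BRFc. With the connective tissue term neither passed (adjusted p = 0.414 and 0.593, limma). Its part in the results was not tested. Of the 8 B cell markers, 2 passed lower with 60mer against no BAFF after control antibody. After mBaffR-mFc 1 did, and 0 passed higher in either comparison. These were Cd22 (-0.24 and -0.19, adjusted p = 0.00193 and 0.0159, limma) and, after control antibody, Blk (-0.19, adjusted p = 0.0179). Of all tested genes 8.94% and 3.37% passed lower. With the connective tissue term all 3 calls were lost (adjusted p 0.545 to 0.999, limma).

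Membrane complement regulators and coreceptor genes gave no call with 60mer against no BAFF. Of the 8 tested members of the coreceptor and membrane complement regulator list, 0 passed with 60mer against no BAFF after either pretreatment. Of all tested genes, 5.04% passed higher and 8.94% lower after control antibody, and 1.46% and 3.37% after mBaffR-mFc. With such shares, 0 of 8 does not set the list apart. The list's median difference was -0.01 in both, near that of all genes (-0.02 in both). Cd81, a tetraspanin of the coreceptor, stood at 97.1 ± 3.07 FPKM in Ab and 96.0 ± 10.2 in Ab_60mer, and was singled out after its values were seen. The smallest p of the list after control antibody belonged to Ifitm1 (-0.28 ± 0.142, adjusted p = 0.193) and Cd46 (0.39 ± 0.202, adjusted p = 0.208). Against 3mer after mBaffR-mFc, Ifitm3, an interferon-induced membrane protein, fell by 0.36 (adjusted p = 0.0136), where 5.16% of all tested genes passed. That call was lost in 1 of 18 fits without 1 library (highest adjusted p 0.0815, limma). It was also lost in 3 of 9 other alternatives (highest adjusted p 0.727, limma).

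Of the proteases that release CD23 and ICOSL and their carriers, 2 of 9 tested members passed after each pretreatment. Adam10, the main sheddase of CD23, stood at 141 ± 4.91 FPKM in Ab and 147 ± 2.47 in Ab_60mer (0.06 ± 0.049, adjusted p = 0.439) and was singled out after its values were seen. After control antibody 1 of the 9 rose and 1 fell with 60mer, where 5.04% of all tested genes passed higher and 8.94% lower, with a list median of 0.05. The one that rose was Adam17, a protease related to Adam10 (0.20 ± 0.041, adjusted p = 0.00525). Tspan14, a tetraspanin that carries ADAM10 to the surface, fell, with 33.4 ± 1.09 FPKM in Ab and 27.5 ± 0.912 in Ab_60mer (difference -0.27 ± 0.049, adjusted p = 0.00232).

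After mBaffR-mFc, 0 rose and 2 fell with 60mer, against 1.46% and 3.37% of all tested genes. Tspan14 had 32.1 ± 1.34 FPKM in BRFc and 27.5 ± 0.693 in BRFc_60mer (difference -0.21 ± 0.049, adjusted p = 0.0165). Rhbdf2, a rhomboid-like partner of ADAM17, had a difference of -0.25 ± 0.067 (adjusted p = 0.0366). Against 3mer, Tspan14 passed lower after both pretreatments, Rhbdf1 and Adam17 higher after control antibody, and Tspan5 higher after mBaffR-mFc. Of all tested genes 4.81% and 5.16% passed there. Without 1 library Rhbdf1 ran from 0.44 to 0.57 and kept its call in all 18 fits (highest adjusted p 0.0268, limma). The calls of Adam17 and Tspan5 against 3mer were each lost in 4. Against no BAFF, leaving out 1 library of 18 ended the Tspan14 call after mBaffR-mFc in 3 fits (highest adjusted p 0.0815) and that of Rhbdf2 in 3 (0.203). None of the 4 calls of this list against no BAFF was kept with the connective tissue term (adjusted p 0.528 to 0.987, limma).

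Among 10 tested Fc receptors and Fc receptor-like genes, Fcgr2b and Fcrla fell with 60mer after both pretreatments, opposite to Fcer2a. Fcgr2b, the inhibitory IgG receptor of B cells, had 99.9 ± 6.00 FPKM in Ab and 72.7 ± 1.47 in Ab_60mer (difference -0.45 ± 0.063, adjusted p = 0.000318, limma). After mBaffR-mFc it had 100.1 ± 5.67 and 72.7 ± 4.18 FPKM (difference -0.46 ± 0.063, adjusted p = 0.000437). Fcrla, an intracellular Fc receptor-like protein of B cells, had 466 ± 13.8 FPKM in Ab and 361 ± 0.743 in Ab_60mer (difference -0.37 ± 0.040, adjusted p = 3.45e-05). It fell by 0.38 after mBaffR-mFc (adjusted p = 5.23e-05). After control antibody 1 of the 10 rose (Fcrl5, 0.37 ± 0.106, adjusted p = 0.0304) and 3 fell, the other being Fcer1g, the signalling chain of Fc receptors (-0.25 ± 0.059, adjusted p = 0.0113). Of all tested genes 5.04% passed higher and 8.94% lower there. After mBaffR-mFc 1 rose (Fcgr4, at 1.10 FPKM in BRFc, by 0.53 ± 0.144, adjusted p = 0.0439) and 2 fell, against 1.46% and 3.37% of all tested genes. Leaving out 1 library ended the Fcrl5 call in 4 of 18 fits, that of Fcer1g in 1 and that of Fcgr4 in 9. The 7 calls of this list were all lost with the connective tissue term (adjusted p 0.128 to 0.714, limma).

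Fcer1g and Fcgr4 are also genes of NK and myeloid cells. Of the NK cell and the monocyte and macrophage markers, only Klrd1 and Cd14 passed with 60mer against no BAFF. Klrd1, an NK cell receptor, fell by 0.28 after control antibody (adjusted p = 0.0137, limma) and by 0.34 after mBaffR-mFc (adjusted p = 0.00928). Cd14, a monocyte receptor, fell by 0.28 after control antibody (adjusted p = 0.038), and its difference was -0.27 after mBaffR-mFc (adjusted p = 0.0923). These were 1 of 6 tested NK cell markers after each pretreatment, and 1 and 0 of 6 tested monocyte and macrophage markers. Of all tested genes, 5.04% passed higher and 8.94% lower after control antibody, and 1.46% and 3.37% after mBaffR-mFc. The other NK cell markers did not move together. After mBaffR-mFc, Nkg7, Klrb1c, Gzma and Prf1 had differences of 0.16, 0.03, 0.02 and 0.03, and Ncr1 of -0.26. After control antibody the differences of these genes were -0.20 to -0.07. The NK cell markers summed to 100.5 to 107 FPKM in Ab, 89.3 to 91.7 in Ab_60mer, 94.1 to 109 in BRFc and 95.5 to 101 in BRFc_60mer. The monocyte and macrophage markers summed to 151 to 162 FPKM in Ab, 143 to 158 in Ab_60mer, 152 to 168 in BRFc and 149 to 159 in BRFc_60mer. Leaving out 1 library ended the Klrd1 calls in 2 and 1 of 18 fits and that of Cd14 in 5. With the connective tissue term neither Klrd1 (adjusted p = 0.579 and 0.823, limma) nor Cd14 (0.593) kept a call. Both genes were singled out after their values were seen, and their part in the Fc receptor results was not tested.

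No tested relative of ICOSL in the B7 family was called with 60mer. Of 5 tested members, 0 passed in any of the 4 comparisons of 60mer with no BAFF or 3mer. Against no BAFF, 5.04% of all tested genes passed higher and 8.94% lower after control antibody, and 4.83% passed after mBaffR-mFc. Against 3mer, 4.81% and 5.16% passed. With shares this small, 0 of 5 does not set the family apart from other genes. Cd86, a ligand of CD28, stood at 127 ± 6.97 FPKM in Ab and 116 ± 11.4 in Ab_60mer (-0.12 ± 0.095, adjusted p = 0.417). Cd80, its relative, stood at 1.09 ± 0.231 and 1.48 ± 0.315 FPKM (0.24 ± 0.123, adjusted p = 0.194). After mBaffR-mFc the smallest p belonged to Cd274, which encodes PD-L1 (-0.20 ± 0.069, adjusted p = 0.122). Of the receptors of the family, Icos averaged 0.389 FPKM over the 18 libraries and was not tested.

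In the noncanonical NF-kB route, Birc3 and Nfkb2 rose with 60mer after both pretreatments. In each of the comparisons with no BAFF, 6 of 9 tested members did not pass, and these were not all the same genes. After control antibody 3 rose and 0 fell (list median 0.05), against 5.04% and 8.94% of all tested genes. After mBaffR-mFc 2 rose and 1 fell (list median 0.08), against 1.46% and 3.37%. Birc3, a ubiquitin ligase of the TRAF complex at the receptor, had 329 ± 1.54 FPKM in Ab and 418 ± 1.25 in Ab_60mer (difference 0.35 ± 0.036, adjusted p = 2.81e-05). Nfkb2, which encodes p100, rose by 0.28 ± 0.081 (adjusted p = 0.0336), and Traf3, the adaptor that targets NIK for degradation, by 0.27 ± 0.051 (adjusted p = 0.00334). After mBaffR-mFc, Nfkb2 had 119 ± 4.76 FPKM in BRFc and 157 ± 14.7 in BRFc_60mer (difference 0.39 ± 0.081, adjusted p = 0.00962), and Birc3 rose by 0.33 ± 0.036 (adjusted p = 6.47e-05). Tnfrsf13c, which encodes BR3, fell by 0.15 after mBaffR-mFc (adjusted p = 0.038). Leaving out 1 library ended the Nfkb2 call after control antibody in 4 of 18 fits and that of Tnfrsf13c in 6. With the connective tissue term 0 of these 6 calls passed (adjusted p 0.127 to 0.851, limma).

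In the list of the IL-4 and CD40 route, which drives CD23 in activated B cells, 2 of 9 tested members rose and 0 fell with 60mer after control antibody, and 3 rose and 0 fell after mBaffR-mFc. Of all tested genes 5.04% passed higher in the first comparison and 1.46% in the second. Cd40, the costimulatory receptor, had 64.7 ± 3.35 FPKM in Ab and 86.6 ± 7.67 in Ab_60mer (difference 0.41 ± 0.061, adjusted p = 0.000455). After mBaffR-mFc it had 61.6 ± 2.27 and 78.9 ± 4.29 FPKM (difference 0.35 ± 0.061, adjusted p = 0.00287). Stat6, the transcription factor of the IL-4 receptor, rose by 0.11 ± 0.036 (adjusted p = 0.0478) and 0.17 ± 0.036 (adjusted p = 0.00962). Il4ra, the receptor chain, rose by 0.14 ± 0.040 after mBaffR-mFc (adjusted p = 0.049). Leaving out 1 library ended the Stat6 call after control antibody in 15 of 18 fits and that of Il4ra in 15, and all 5 calls of the list were lost with the connective tissue term (adjusted p 0.366 to 0.999, limma). Il4 itself averaged 0.413 FPKM and was not tested.

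The Notch2 pathway, which directs B cells to the marginal zone and has Cr2 and Fcer2a among its described targets, gave mixed calls. After control antibody 1 of 15 tested members rose and 3 fell with 60mer (list median -0.07), against 5.04% and 8.94% of all tested genes. Rbpj, the DNA-binding factor of the pathway, rose by 0.22 ± 0.053 (adjusted p = 0.0109). Dtx1, a Notch target, had 126 ± 7.60 FPKM in Ab and 103 ± 8.98 in Ab_60mer (difference -0.29 ± 0.064, adjusted p = 0.00742). Rfng and Lfng, glycosyltransferases that act on Notch receptors, had differences of -0.32 ± 0.095 (adjusted p = 0.0339) and -0.29 ± 0.068 (adjusted p = 0.00989). After mBaffR-mFc 0 rose and 1 fell, the coactivator Maml2 (-0.30 ± 0.071, adjusted p = 0.0195), where 1.46% and 3.37% of all tested genes passed. Leaving out 1 library ended the Rfng call in 4 of 18 fits, that of Lfng in 1 and that of Maml2 in 3. The connective tissue term left 0 of the 5 calls (adjusted p 0.794 to 0.954, limma). Notch2 stood at 46.2 ± 5.30 FPKM in Ab and 51.4 ± 0.191 in Ab_60mer (0.15 ± 0.083, adjusted p = 0.222) and was singled out after its values were seen.

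Other markers of the B cell subsets did not move as a block with Fcer2a or Cr2. Of the 7 tested follicular markers apart from Fcer2a and Icosl, 1 rose and 2 fell with 60mer after control antibody, and 0 rose and 3 fell after mBaffR-mFc. The shares of all tested genes were 5.04% higher and 8.94% lower in the first comparison, and 1.46% and 3.37% in the second. Cxcr5, the chemokine receptor for follicles, rose by 0.16 ± 0.034 after control antibody (adjusted p = 0.00569). Klf2, a transcription factor of quiescence and trafficking, had 69.1 ± 3.38 FPKM in Ab and 48.0 ± 2.34 in Ab_60mer (difference -0.52 ± 0.062, adjusted p = 7.63e-05), and fell by 0.40 after mBaffR-mFc (adjusted p = 0.00119). Itgb7, an integrin chain, fell by 0.65 (adjusted p = 0.00536) and 0.63 (adjusted p = 0.0116), and leaving out 1 library ended the second call in 1 of 18 fits. Foxo1 fell by 0.24 after mBaffR-mFc (adjusted p = 0.0242), a call lost in 5 of 18 such fits. All 6 calls of this list were lost with the connective tissue term (adjusted p 0.255 to 0.999, limma).

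Of the 13 marginal zone markers apart from Cr2, 3 rose and 5 fell after control antibody, and 1 rose and 3 fell after mBaffR-mFc, where 5.04% and 8.94%, and 1.46% and 3.37%, of all tested genes passed higher and lower. Asb2, a ubiquitin ligase subunit, had 2.20 ± 0.234 FPKM in Ab and 5.23 ± 0.500 in Ab_60mer (difference 0.96 ± 0.150, adjusted p = 0.000731), and rose by 0.84 ± 0.150 after mBaffR-mFc (adjusted p = 0.00368). S1pr1, the receptor that holds these cells in the marginal zone, had 118 ± 3.73 FPKM in Ab and 79.0 ± 2.41 in Ab_60mer (difference -0.57 ± 0.035, adjusted p = 5.79e-08). It fell by 0.51 after mBaffR-mFc (adjusted p = 3.32e-07). Ebi3, a cytokine subunit, rose by 0.56 ± 0.115 after control antibody (adjusted p = 0.00523). Tm6sf1 fell by 0.50 (adjusted p = 0.00471) and 0.45 (adjusted p = 0.0152), and leaving out 1 library ended the second call in 2 of 18 fits. With the connective tissue term 2 of the 12 calls were kept, both of S1pr1 (adjusted p = 0.00114 and 0.00512, limma), and the highest adjusted p of the list was 0.934.

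Of the 7 tested members of the list of transitional and immature markers, 1 rose and 1 fell after each pretreatment. Of all tested genes 5.04% rose and 8.94% fell after control antibody, and 1.46% and 3.37% after mBaffR-mFc. Spib, a transcription factor of B cell maturation, was the one that rose, by 0.36 ± 0.040 (adjusted p = 3.83e-05) and 0.37 ± 0.040 (adjusted p = 5.52e-05). Vpreb3, a gene of immature B cells, fell by 0.43 after control antibody (adjusted p = 0.0306, lost in 4 of 18 fits without 1 library). Bcl2l11, which encodes the death factor BIM, fell by 0.21 after mBaffR-mFc (adjusted p = 0.0255, lost in 5). None of these 4 calls passed with the connective tissue term, although those of Spib came nearest (adjusted p = 0.0685 and 0.0749, limma). Of 132 results past the threshold for single genes of the lists, for markers and for genes named by their pattern, over the 4 comparisons of 60mer with no BAFF or 3mer, 106 lost their call under that term. The calls of Spib, Fcrla, Birc3, Cd40, Klf2, Traf3, Asb2, Plxnd1, Rhbdf1 and S1pr1 for Ab_60mer against Ab_3mer were kept with it. Their highest adjusted p over the alternatives other than leaving out a library was 0.0443 (Traf3, limma). For BRFc_60mer against BRFc_3mer, those of Spib and S1pr1 were kept. Of all tested genes, 560 passed in the first of these without the term and 246 with it, and 601 and 15 in the second. A lost call need not mean a lost difference. Over the alternatives other than leaving out a library, Spib ran from 0.36 to 0.38 for Ab_60mer against Ab. Birc3 ran from 0.28 to 0.37 there, and Lfng from -0.31 to -0.13. Among the list genes called against no BAFF, S1pr1 was the only one to keep its calls in those comparisons with the term. Some lists share members, such as Dtx1 and Notch2 in the Notch2 and marginal zone lists.

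**Figure D4:**
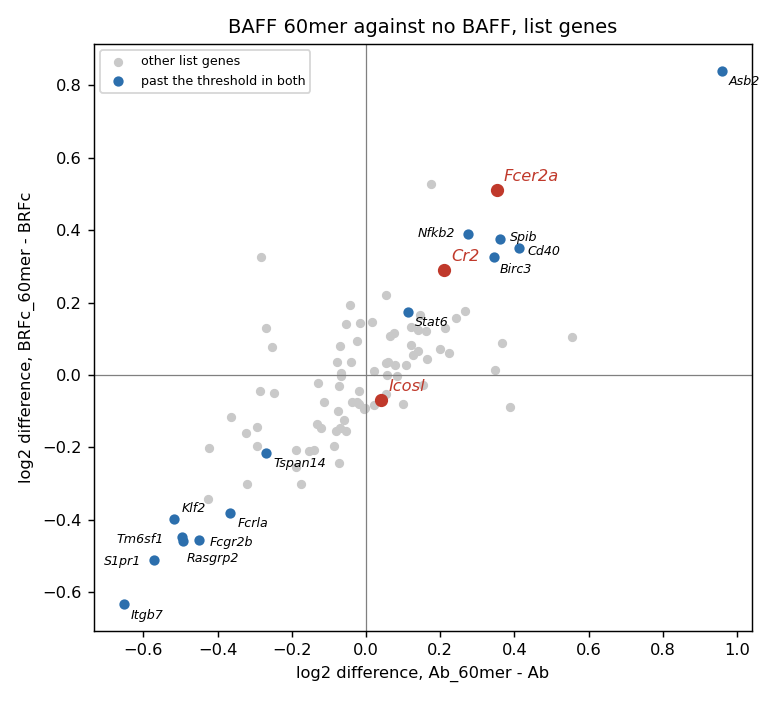
Log2 difference of BAFF 60mer against no BAFF after control antibody (horizontal) and after mBaffR-mFc (vertical) for tested list genes; blue genes passed in both and the 3 genes of interest are red. Fcer2a lies at 0.35 and 0.51, Cr2 at 0.21 and 0.29, and Icosl at 0.04 and -0.07, near the centre.

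The genes whose log2 levels followed Fcer2a most closely over the 18 libraries were Spib (Pearson correlation 0.975), Zfp36l1 (0.975), Ift140 (0.972), Chst10 (0.972) and Swap70 (0.962). Spib had 241.1 to 267.2 FPKM with 60mer and 188.3 to 207.8 in the other 12 libraries. Its difference between 60mer and no BAFF was 0.36 after control antibody and 0.37 after mBaffR-mFc, where those of Fcer2a were 0.35 and 0.51. Swap70 had 250.3 to 277.5 FPKM with 60mer and 194.7 to 217.4 elsewhere. For Cr2 the list was Fchsd2 (0.931), Zfp36l1 (0.922), Fcer2a (0.920), Hmgcs1 (0.918) and Arap2 (0.917). Zfp36l1, an RNA-binding protein that destabilises messenger RNA, is on both lists, with 94.3 to 102.7 FPKM with 60mer and 82.7 to 87.4 elsewhere.

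The genes most like Icosl were Syk (0.844), Gbp9 (0.834), Eif2ak2 (0.832), Rassf2 (0.828) and Akna (0.825). Syk, a kinase of B cell receptor signalling, stood at 191.2, 215.4 and 239.4 FPKM in the BRFc libraries, in which Icosl stood at 45.7, 54.7 and 63.1. Eif2ak2, the interferon-induced kinase PKR, stood at 17.5, 22.2 and 27.1 FPKM in the same libraries. Syk, Gbp9, Rassf2 and Akna were highest in library 3 in all 6 groups, and Eif2ak2 in 5. None of the 5 passed with 60mer against no BAFF after either pretreatment (adjusted p 0.369 to 0.908, limma). Likeness here is the correlation over 18 libraries that share group and library effects, and it was used to choose these genes.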

How the data were processed

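RNA from 6 groups of 3 B cell libraries was sequenced. The deposited values are FPKM, computed for the authors by a sequencing company, per the labels' protocols. The aligner, counting tool, genome build and scaling are not given in the sources used here. Symbols and positions came from GENCODE M21 (GRCm38), which matched 34490 of 35275 gene IDs. Steps between low FPKM values gave back each library total. For genes with a single annotated transcript, 91.5% to 92.6% of values under 50 fragments came out whole to within 0.1. Over a wider range of values 78.9% to 89.0% did. Fcer2a, Cr2 and Icosl have 8, 12 and 4 annotated transcripts, so this check does not cover their fragment counts.

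Values were taken as log2(FPKM + 1), which understates changes of low genes. The 11646 genes that averaged 1 FPKM or more entered limma 3.58.1 under R 4.3.3 (variance trend, 1 residual variance over the 6 groups, two-sided), with Benjamini-Hochberg adjustment over all of them in each comparison and a threshold of 0.05. The steps were tested on simulated data. Motifs were searched in RefSeq promoters (GRCm38.p6). Figures used matplotlib 3.10.9 in Python 3.11.15.

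Alternatives were a pseudocount of 0.1, median-of-ratios rescaling, no filter or a stricter one (mean of 5 FPKM), array weights, only the groups compared and each library left out. Added once the data had been seen were voom on recovered fragments (11568 genes) and terms for the library total or for connective tissue transcripts. The 3 genes and the gene lists were chosen with earlier results of these data known. From each list up to 4 members past the threshold were named by size of difference, or the 2 with the smallest p, and for each of the 3 genes the 5 with the highest correlation. No sample was left out.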

Additional observations from a re-analysis of the deposited data

How the results depend on the processing

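The 4 calls of Fcer2a and 3 of Cr2 with 60mer kept their direction under every alternative run. They kept their side of the threshold in each of 18 fits without 1 library and in all other alternatives, except with connective tissue transcripts as a term. Under that term the Fcer2a difference between Ab_60mer and Ab was 0.36 (adjusted p = 0.081), and Cr2 gave 0.16, 0.24 and 0.27 without passing. Over the fits without 1 library, Fcer2a ran from 0.32 to 0.39 for Ab_60mer against Ab and from 0.49 to 0.54 for BRFc_60mer against BRFc, and Cr2 from 0.17 to 0.25 and from 0.26 to 0.32.

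Differences near 0 changed sign. Without 1 library, Fcer2a ran from -0.0088 to 0.032 for Ab_3mer against Ab and from -0.010 to 0.031 for the interaction of 3mer. Icosl ran from -0.011 to 0.041 for Ab_3mer against Ab, -0.011 to 0.052 for Ab_60mer against Ab_3mer, -0.19 to 0.041 for BRFc_60mer against BRFc, -0.13 to 0.098 for BRFc_3mer against BRFc, -0.12 to 0.012 for BRFc_60mer against BRFc_3mer, -0.017 to 0.21 for BRFc against Ab, -0.0100 to 0.12 for BRFc_3mer against Ab_3mer and -0.036 to 0.013 for BRFc_60mer against Ab_60mer. Its interactions ran from -0.23 to 0.00085 for 60mer and -0.15 to 0.076 for 3mer. Several of these turned on BRFc library 3, the highest for Icosl. With the library total as a term Icosl gave -0.0079 for Ab_3mer against Ab, 0.0087 for BRFc_60mer against BRFc, 0.049 for BRFc_3mer against BRFc and 0.057 for the interaction of 3mer. With the connective tissue term it gave 0.032 for BRFc_60mer against BRFc, 0.043 for BRFc_60mer against BRFc_3mer and -0.0079 for BRFc_3mer against Ab_3mer.

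The number of genes called moved more. Without 1 library it ran from 756 to 1798 for Ab_60mer against Ab, 246 to 628 for Ab_60mer against Ab_3mer, 242 to 731 for BRFc_60mer against BRFc, 233 to 667 for BRFc_60mer against BRFc_3mer and 1 to 6 for BRFc_60mer against Ab_60mer. It ran from 0 to 1 for each comparison of 3mer with no BAFF, for BRFc against Ab, for BRFc_3mer against Ab_3mer and for the interaction of 3mer, from 0 to 2 for the interaction of 60mer and from 1 to 4 for that of 60mer against 3mer. With only the groups compared it was 1053, 252, 139 and 287 for the first 4 comparisons, 2 for BRFc_3mer against BRFc, 2 for BRFc_3mer against Ab_3mer and 0 for BRFc_60mer against Ab_60mer and both interactions with 60mer. With the library total it was 624, 166 and 272 for the first 3, and 0 and 1 for those interactions. With the connective tissue term it was 16, 246, 10 and 15 for the first 4, 1 for Ab_3mer against Ab, for BRFc_3mer against Ab_3mer and for the interactions of 3mer and of 60mer against 3mer, and 2 for that of 60mer. Array weights gave 1386 for BRFc_60mer against BRFc, 1318 against BRFc_3mer and 8 for BRFc_60mer against Ab_60mer. No filter gave 1 for Ab_3mer against Ab, for BRFc_3mer against Ab_3mer and for the interaction of 3mer, and 0 for the interaction of 60mer, as did median-of-ratios rescaling. A minimum mean of 5 FPKM gave 1 for the interaction of 60mer against 3mer. The cause was not tested. Median-of-ratios rescaling moved the split of higher and lower calls from 587 and 1041 to 763 and 880 for Ab_60mer against Ab, and from 170 and 393 to 226 and 289 for BRFc_60mer against BRFc.

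No paired analysis was possible because the labels give no replicate numbers. Depth gave at least 2857 fragments per library for each of the 3 genes, with a counting error of up to 1.87%. The SD between libraries was as low as 0.823% of the group mean (Icosl in Ab), so that counting is part of the error in the tightest groups. For Icosl that spread left differences of up to 0.27 (log2) within the 95% interval of BRFc against Ab.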
